A study of Mus musculus with 233 samples.

Results

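The genes of GABA signalling, 26 in number, were followed across all 30 groups of the study. They were chosen by symbol and matched by Ensembl identifier in the count table, which holds 41129 gene entries, and all 26 were found. They are 16 subunits of the GABA-A receptor (alpha, beta, gamma, delta, epsilon, theta, pi and rho), the 2 subunits of the GABA-B receptor, 2 synthesis enzymes, the vesicle transporter, 2 plasma membrane transporters, the breakdown enzyme, and 2 proteins of the inhibitory postsynapse. Other genes of the family are not analysed here. RNA was sequenced from striatum of 120 mice in 233 libraries, 6 to 8 per group. The zQ175 mice (labelled zQ175 het) carried 1 knock-in Htt allele with human exon 1 and an expanded CAG repeat, a model of Huntington's disease, and WT mice were their wild-type littermates. Every mouse had virus injected in the striatum of both hemispheres, so no group was left without virus. The nZFP virus expressed ZFP30645, a zinc finger repressor aimed at expanded CAG repeats, from the human synapsin promoter, which acts in neurons. Of the 2 control viruses, DBD expressed the repressor without its DNA-binding domain from the same promoter, and Estop carried a stuffer that encodes no protein. The groups were zQ175 nZFP, zQ175 DBD, zQ175 Estop, WT nZFP, WT DBD and WT Estop, each in 5 paradigms. A paradigm is named by the ages, in months, at which virus was injected and striatum collected. Treatment thus lasted 4 months in 2M_6M, 6 in 2M_8M, 2 in 6M_8M, 4 in 6M_10M and 6 in 6M_12M, and lists of 5 values below keep this order. Nearly all mice (113 of 120) are in the data with a pair of libraries, 1 for each of 2 viruses, so that libraries compared between genotypes always came from different mice.

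GABA is the main inhibitory transmitter of the brain and the transmitter of nearly all striatal neurons, the medium spiny projection neurons and most interneurons. It is made from glutamate, loaded into vesicles, released, and taken up again by neurons and astrocytes. GABA-A receptors are chloride channels of several subunits. Those with a gamma subunit mostly sit at synapses, whereas those with the delta subunit, usually with alpha-4 in the forebrain, sit outside synapses and carry a tonic current. GABA-B receptors are coupled to G proteins.

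Libraries held 27993227 to 61296096 gene counts (median 37385970), and the level of a gene is given as CPM, its counts scaled to the library total. The values of Htt, whose expanded allele the repressor is aimed at, are those of the entry under that symbol. Any counts under a separate entry for the knock-in allele are not in them, so they need not be total Htt. Htt had 23.4 to 165 CPM (median 81.2) in zQ175 nZFP, 38.0 to 126 CPM (median 95.5) in zQ175 DBD and 52.7 to 148 CPM (median 109.8) in zQ175 Estop. In the WT groups it had 53.8 to 173 CPM (median 128) in WT nZFP, 44.6 to 165 CPM (median 125) in WT DBD and 60.0 to 184 CPM (median 144) in WT Estop. Vector transcripts went against the label in 4 libraries. Those labelled WT DBD R7 and R8 of 6M_8M held 321 and 480.5 CPM of the repressor entry, and the one labelled zQ175 nZFP R5 of 6M_8M held 8.55 CPM. The one labelled WT DBD R6 of 2M_6M held 59.2 CPM of WPRE, an RNA element of the nZFP and DBD vectors. The other libraries had 98.7 to 1087 CPM of the repressor entry under nZFP, against at most 27.8 CPM under DBD, and at least 122 CPM of WPRE under DBD. A further 4 libraries stood apart in a length index. This is the mean centred log2 CPM of the genes longest in exon length minus that of the genes shortest in it. The 4 were zQ175 DBD R3 of 2M_6M (-1.17), zQ175 nZFP R2 of 6M_10M (-1.25), WT DBD R2 of 6M_10M (-1.08) and WT nZFP R8 of 6M_8M (-0.86), against -0.70 to 0.52 in the other libraries. The last of them was added to this set after the data were seen. These 8 are called the doubtful libraries, and results that rest on them are given with and without them.

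In TPM, transcripts scaled by length and library, the unit in which genes can be compared, the members were ordered by their median over the 37 WT Estop libraries. Gabbr1, the ligand-binding GABA-B subunit, was the highest with a median of 745 TPM. It was followed by Gad1, a GABA synthesis enzyme, at 470.3 TPM, Slc32a1, the vesicle transporter, at 335 TPM, Abat, the breakdown enzyme, at 280.5 TPM and Gad2, the second synthesis enzyme, at 179 TPM. From Gad1 down to Gabrd, which came next, no gene differed from its neighbour in this order beyond the SD over libraries, whereas Gabbr1 lay beyond it above Gad1. The highest GABA-A subunits among the members were Gabrd (delta) at 172 TPM and Gabra4 (alpha-4) at 119 TPM, which differed by more than the spread. Nlgn2, Gabrb2 (beta-2), Gphn, Slc6a11 and Gabbr2 had 81.4, 56.9, 54.5, 41.0 and 27.4 TPM. The alpha subunits Gabra2, Gabra5 and Gabra3 had 24.4, 17.3 and 16.5 TPM, and Gabrb1, Gabrg1 and Gabrg3 had 15.5, 11.3 and 10.4 TPM. From Nlgn2 down to Gabrg3 no neighbours in the order differed beyond the spread. The next gene, Slc6a13, stood clear below Gabrg3 at 3.63 TPM.

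Below 1 TPM lay Gabrr2 (rho-2), Gabrq (theta), Gabre (epsilon) and Gabrr1 (rho-1). Gabra6, Gabrp, Gabrr1 and Gabrr3 never had more than 2, 7, 17 and 3 counts in any library. These 4 did not pass the filter on low counts in any paradigm and were not tested. Gabre passed it in 3 paradigms and the other 21 in all 5, giving 108 tests of a member in a paradigm for each comparison.

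**Figure D1:**
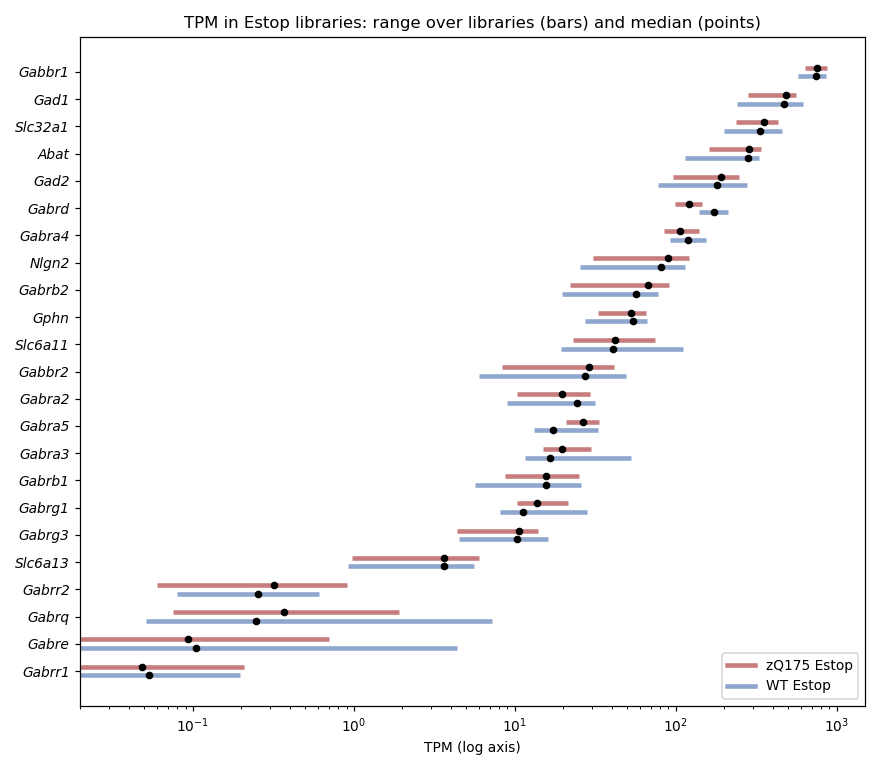
Levels of the members in TPM (log axis) in the Estop libraries, zQ175 (red, upper bar) above WT (blue, lower bar), with the range over libraries as a bar and the median as a point; a bar at the left edge runs on to lower values or to 0, and Gabra6, Gabrp and Gabrr3, with a WT median of 0, are not drawn. Gabbr1 is highest at 745 TPM in WT Estop, and the Gabrd medians are 121 TPM in zQ175 Estop and 172 TPM in WT Estop.

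The effect of the zQ175 allele was compared between zQ175 DBD and WT DBD mice. The genotypes differed in several GABA-A receptor subunits. In zQ175, Gabrd was lower in 5 paradigms, Gabra5 and Gabra3 were higher in 4 and Gabra2 was lower in 3, while the genes that make, load, take up and break down GABA did not pass the test in any paradigm. Of the 108 tests, 20 passed at an adjusted p below 0.05 (edgeR quasi-likelihood test, Benjamini-Hochberg adjustment over all genes), 9 of them higher and 11 lower in zQ175. That is 18.5%, against 19.8% of all genes tested in the same comparison, so the share of members called was close to the background. By direction the backgrounds were 10.3% higher and 9.48% lower. Without the doubtful libraries it was 22 of 108, 20.4%, against 22.6% of all genes.

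By class, of the 20 tests of alpha subunits 12 passed, 8 higher and 4 lower, and Gabrd gave the 5 calls among the 13 tests of delta, epsilon and theta. The remaining 75 tests gave 3 calls, all in 2M_6M: Gabrg1 was higher, and Gabbr1 and Gphn were lower. The members' median log2 fold change was -0.076, -0.0055, -0.0052, 0.09 and 0.04, beside 0.035, -0.0018, 0.0089, -0.014 and 0.003 for all genes. Passing in the same direction in at least 3 of the 5 paradigms were 4 of the 22 tested members, Gabrd, Gabra5, Gabra3 and Gabra2, against 15.8% of all genes.

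**Figure D2:**
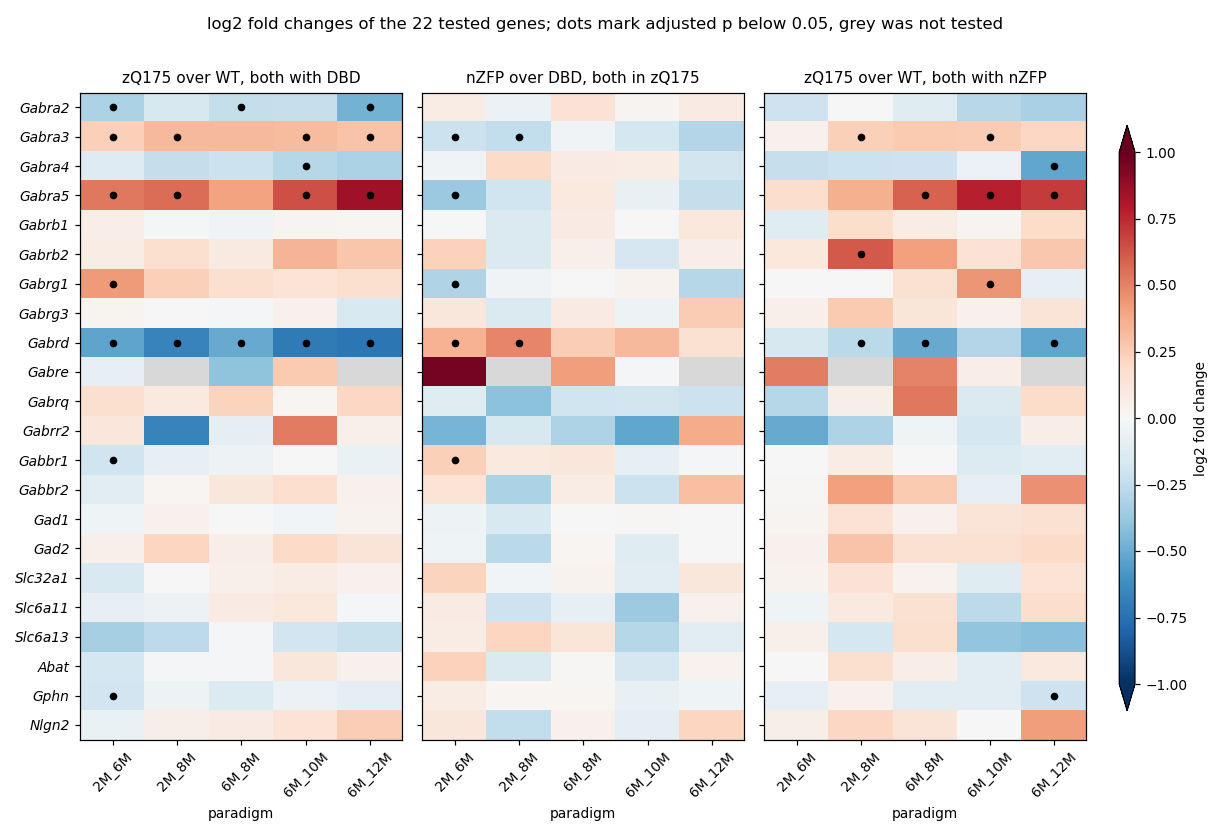
Log2 fold changes (colour) of the 22 tested members (rows) in the 5 paradigms (columns) for zQ175 over WT with DBD, nZFP over DBD in zQ175, and zQ175 over WT with nZFP; dots mark adjusted p below 0.05 and grey was not tested. Gabrd is blue with a dot in all 5 columns of the first panel and red in all 5 of the second, where 2 columns have a dot.

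Gabrd encodes the delta subunit (ENSMUSG00000029054, GRCm38 chromosome 4, 155384980 to 155398112, minus strand, a gene of 13.1 kb). Its level was lower in zQ175 DBD than in WT DBD striatum in all 5 paradigms, by 0.50 to 0.72 on the log2 scale. In 2M_6M it ranged over 101 to 139.6 CPM (median 105, n = 7) in zQ175 DBD, against 139 to 185 CPM (median 159, n = 8) in WT DBD. The 2 ranges overlapped because of 1 zQ175 library, the doubtful R3 at 139.6 CPM. At 2M_8M the range was 98.6 to 123 CPM (median 108, n = 8) in zQ175 DBD, against 146 to 214 CPM (median 176, n = 8) in WT DBD, with no overlap. The mice of 6M_8M gave 77.5 to 109 CPM (median 92.3, n = 8) in zQ175 DBD, against 95.9 to 151 CPM (median 135, n = 8) in WT DBD, where the lowest WT libraries were R7 and R8, the 2 with the repressor transcript. For 6M_10M the values were 95.9 to 113 CPM (median 103, n = 8) in zQ175 DBD, against 135 to 218 CPM (median 150.2, n = 8) in WT DBD, and for 6M_12M 99.4 to 121 CPM (median 107, n = 8) in zQ175 DBD, against 143 to 192 CPM (median 168, n = 7) in WT DBD. Neither of these 2 pairs overlapped.

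The log2 fold changes of Gabrd were -0.53, -0.67, -0.50, -0.70 and -0.72, with SEs of 0.073, 0.075, 0.094, 0.10 and 0.084 and adjusted p-values of 2.6e-07, 2.5e-09, 0.00029, 6.5e-07 and 5.7e-09. In comparison, 3.35% of all genes tested in every paradigm were lower in all 5. Without the doubtful libraries the zQ175 DBD and WT DBD ranges were apart in all 5 paradigms, and the fold changes were -0.65, -0.67, -0.61, -0.61 and -0.72. Over all tests of this comparison, 5.12% of genes had groups that did not overlap in CPM.

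The markers of medium spiny neurons, which express Gabrd, moved with it. Of the 45 tests of 9 such markers over the paradigms, 38 were lower and 1 higher (9.48% and 10.3% of all genes), with a median log2 fold change of -0.76. Their summed level had group medians of 5733 to 6013 CPM in zQ175 DBD, against 9426 to 10941 CPM in WT DBD, and none of the 9 was at 0 in any group. The 10 interneuron markers gave 7 lower calls in 50 tests (background 9.48%) and summed to 336 to 426 CPM in zQ175 DBD, against 342 to 442 CPM in WT DBD. These markers moved in the same comparison as the other members described below. Their part in the fall of Gabrd and in those differences was not tested, and in bulk tissue fewer cells of a type cannot be told apart from less RNA per cell.

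**Figure D3:**
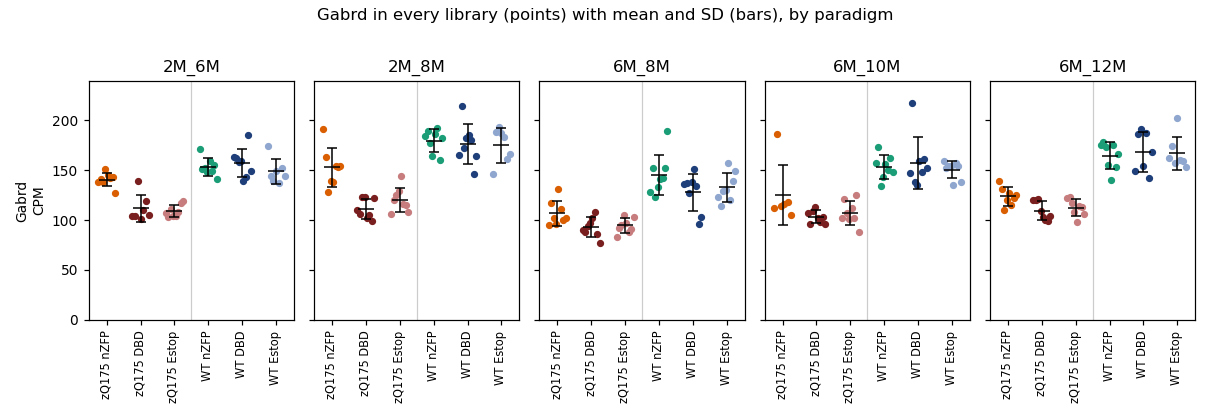
Gabrd in CPM (vertical axis from 0) in every library (points) of the 6 groups of each paradigm (panels), with mean and SD as black bars. The zQ175 DBD libraries sit below the WT DBD libraries of the same panel, except for 1 zQ175 library of 2M_6M and the 2 WT DBD libraries of 6M_8M with the repressor transcript, and zQ175 nZFP is highest in 2M_8M, at a mean of 153 CPM.

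Gabra5 encodes alpha-5 (ENSMUSG00000055078, GRCm38 chromosome 7, 57407672 to 57510059, minus strand), an alpha subunit found mostly outside synapses and best known from the hippocampus. Gabra3 encodes alpha-3 (ENSMUSG00000031343, chromosome X, 72432681 to 72656848, minus strand) and Gabra2 alpha-2 (ENSMUSG00000000560, chromosome 5, 70957597 to 71095849, minus strand), both mostly synaptic. Since the repressor is aimed at expanded CAG repeats, the promoter windows of these 3 genes are shown (RefSeq, GRCm38.p6, the 250 bases before the start and 50 after it, in the direction of the gene), with the triplets CAG and CTG in capitals. The windows lie at chr7:57510010-57510309, chrX:72656758-72657057 and chr5:71095800-71096099, all on the minus strand. Gabra3 had 2 windows, of which 1 is shown.
Gabra5: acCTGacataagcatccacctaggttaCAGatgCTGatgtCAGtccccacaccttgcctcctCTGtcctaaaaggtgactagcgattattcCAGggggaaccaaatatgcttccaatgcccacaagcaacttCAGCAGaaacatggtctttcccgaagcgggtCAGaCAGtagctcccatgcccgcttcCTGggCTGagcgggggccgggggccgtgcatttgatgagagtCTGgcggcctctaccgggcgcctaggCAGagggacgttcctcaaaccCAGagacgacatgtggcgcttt
Gabra3: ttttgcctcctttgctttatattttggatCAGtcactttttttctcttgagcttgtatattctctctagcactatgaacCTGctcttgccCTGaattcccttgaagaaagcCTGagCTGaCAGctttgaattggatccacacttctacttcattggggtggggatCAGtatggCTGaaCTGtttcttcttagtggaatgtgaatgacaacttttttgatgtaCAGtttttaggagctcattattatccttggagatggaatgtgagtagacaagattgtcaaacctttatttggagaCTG
Gabra2: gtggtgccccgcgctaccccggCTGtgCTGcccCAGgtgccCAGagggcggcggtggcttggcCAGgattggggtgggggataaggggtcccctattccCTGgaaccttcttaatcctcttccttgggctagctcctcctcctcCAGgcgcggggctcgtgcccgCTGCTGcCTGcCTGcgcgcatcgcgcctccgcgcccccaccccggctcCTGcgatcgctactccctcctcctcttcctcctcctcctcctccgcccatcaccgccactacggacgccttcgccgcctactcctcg
Counted in this direction, the windows hold 15 CAG or CTG triplets in Gabra5, 11 in Gabra3 and 12 in Gabra2. The longest run of consecutive CAG on either strand was 2 in Gabra5, 1 in Gabra3 and 2 in Gabra2. Windows were found for 24 of the 26 members. Of these, 7 had a run of 2 or more, and none had a run of 3 or more, against 31.6% and 1.82% of all 32851 windows. The windows differed in base composition: Gabra5 held 13 CG dinucleotides, Gabra3 0 and Gabra2 25, beside a median of 7 over all windows.

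Gabra5 was higher in zQ175 DBD than in WT DBD in 4 of 5 paradigms, by 0.53 to 0.85 on the log2 scale. In 2M_6M it ranged over 29.5 to 36.7 CPM (median 33.5) in zQ175 DBD, against 19.4 to 27.5 CPM (median 22.4) in WT DBD. The 2M_8M values were 28.7 to 45.7 CPM (median 31.6) in zQ175 DBD, against 17.9 to 28.5 CPM (median 22.4) in WT DBD. In both paradigms every zQ175 library was above every WT library. The 6M_10M libraries gave 28.5 to 37.0 CPM (median 32.7) in zQ175 DBD, against 15.7 to 24.6 CPM (median 19.3) in WT DBD, and those of 6M_12M 30.2 to 38.9 CPM (median 34.3) in zQ175 DBD, against 15.7 to 19.8 CPM (median 17.6) in WT DBD, again with no overlap in either.

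In 6M_8M the ranges overlapped, with 24.3 to 46.1 CPM (median 29.8) in zQ175 DBD, against 16.2 to 38.8 CPM (median 21.4) in WT DBD, and the difference did not pass the test (0.40, SE 0.15, adjusted p = 0.094). The highest WT value there belonged to R7, which carried the repressor transcript. Without the doubtful libraries the fold change was 0.50 with an adjusted p of 0.022. The fold changes in all paradigms were 0.53, 0.56, 0.40, 0.64 and 0.85, with SEs of 0.10, 0.11, 0.15, 0.082 and 0.11 and adjusted p-values of 4.1e-05, 0.00027, 0.094, 3.6e-08 and 1.4e-07.

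Gabra3 was higher in zQ175 DBD in the same 4 paradigms, with a smaller difference. Its 6M_10M libraries held 28.4 to 32.0 CPM (median 29.9) in zQ175 DBD, against 20.1 to 26.9 CPM (median 22.2) in WT DBD, the only paradigm in which the 2 groups did not overlap. In 2M_6M it ranged over 18.3 to 33.3 CPM (median 25.8) in zQ175 DBD, against 18.4 to 23.6 CPM (median 22.1) in WT DBD, and in 2M_8M over 25.5 to 32.5 CPM (median 28.9) in zQ175 DBD, against 17.6 to 27.8 CPM (median 24.1) in WT DBD. These pairs overlapped, the lowest zQ175 DBD value of 2M_6M being that of the doubtful R3. In 6M_12M it ranged over 25.5 to 32.5 CPM (median 28.3) in zQ175 DBD, against 15.4 to 26.3 CPM (median 21.8) in WT DBD. In 6M_8M, where the spread was widest, it ranged over 28.5 to 54.8 CPM (median 30.4) in zQ175 DBD, against 20.7 to 34.7 CPM (median 25.7) in WT DBD. The fold changes were 0.24, 0.32, 0.33, 0.32 and 0.29, with SEs of 0.066, 0.067, 0.19, 0.06 and 0.091 and adjusted p-values of 0.0063, 0.00031, 0.31, 5.9e-05 and 0.02.

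Gabra2 was lower in zQ175 DBD in 2M_6M, 6M_8M and 6M_12M. In 6M_8M it ranged over 20.3 to 28.1 CPM (median 24.5) in zQ175 DBD, against 23.2 to 31.5 CPM (median 28.6) in WT DBD. The 6M_12M range was 12.0 to 17.8 CPM (median 14.8) in zQ175 DBD, against 12.3 to 28.9 CPM (median 14.8) in WT DBD, with equal medians. There, 3 of the 7 WT DBD libraries, R5, R7 and R8 at 27.0, 23.3 and 28.9 CPM, lay above every zQ175 DBD library and the other 4 lay within the zQ175 range, so the groups differed through those 3. In 2M_6M the values were 9.49 to 27.2 CPM (median 23.0) in zQ175 DBD, against 20.1 to 32.5 CPM (median 26.0) in WT DBD. The ranges overlapped in all 5 paradigms. The lowest value of 2M_6M was that of R3, and without the doubtful libraries this call was lost (-0.24, adjusted p = 0.08), while 6M_10M gained one (-0.30, adjusted p = 0.0044). The fold changes were -0.32, -0.16, -0.24, -0.23 and -0.47, with adjusted p-values of 0.033, 0.44, 0.032, 0.15 and 0.0043. Without 4 libraries of 6M_8M that were high in Zic1, described with Gabre and Gabrq, the 6M_8M call was lost (-0.20, adjusted p = 0.11).

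With Gabra5 higher and Gabra2 lower, the order of these 2 alpha subunits within most libraries differed between the genotypes, counted over all 5 paradigms. In TPM, Gabra5 was above Gabra2 in 36 of 39 zQ175 DBD libraries, against 9 of 39 WT DBD libraries. With Estop it was so in 36 of 40 zQ175 libraries, against 10 of 37 WT libraries, and with nZFP in 31 of 38, against 10 of 40. The means were 26.4 ± 3.85 TPM of Gabra5 and 18.8 ± 5.47 TPM of Gabra2 in zQ175 DBD (SD, n = 39), against 17.1 ± 4.22 TPM of Gabra5 and 22.0 ± 5.92 TPM of Gabra2 in WT DBD (SD, n = 39). In neither group did the 2 genes differ beyond the SD over libraries.

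**Figure D4:**
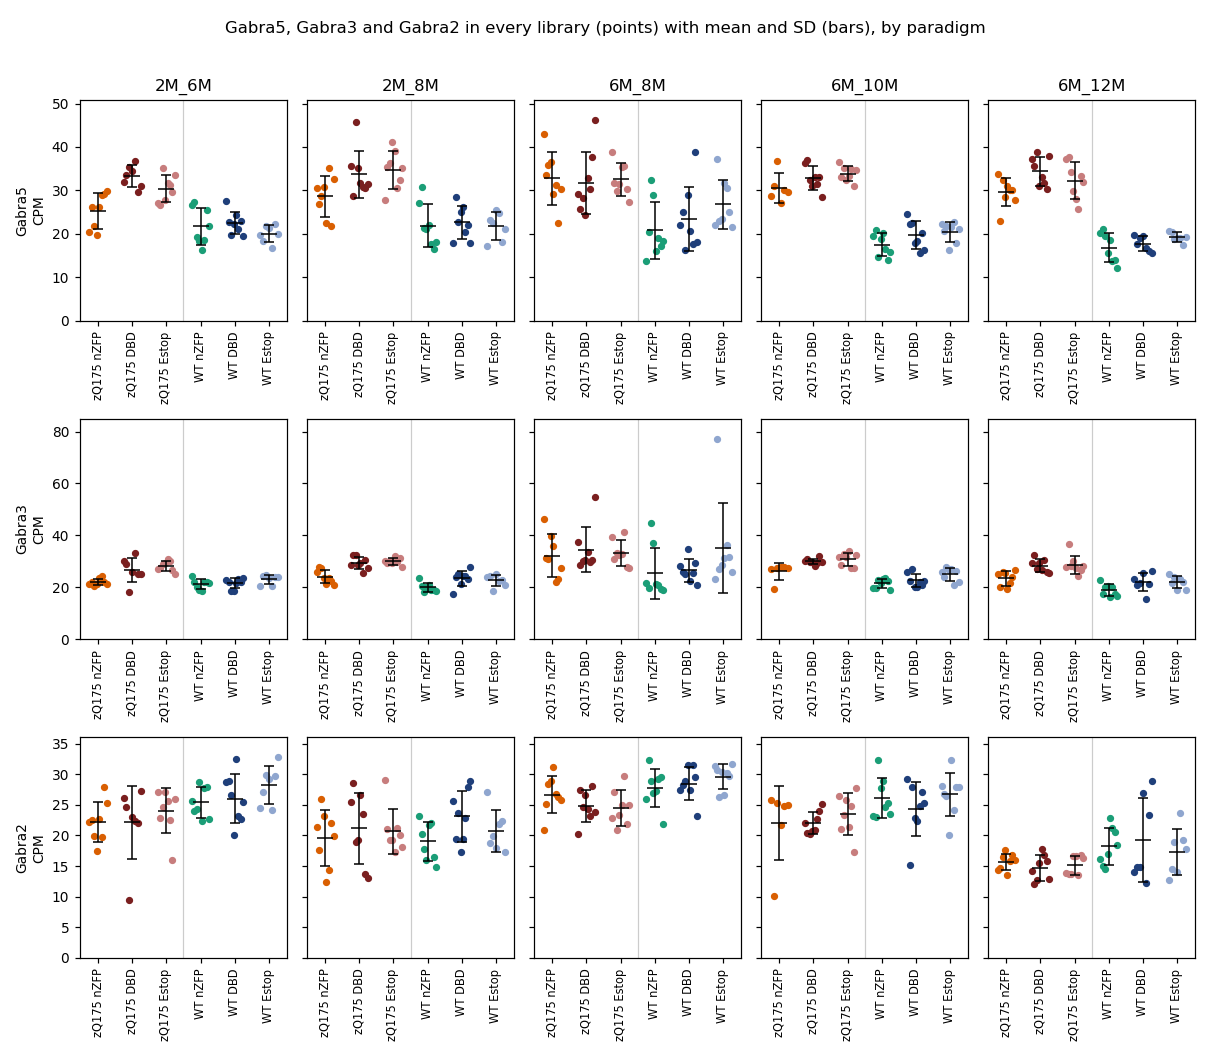
Gabra5, Gabra3 and Gabra2 (rows) in CPM, with axes from 0, in every library (points) of the 6 groups of each paradigm (columns), with mean and SD as black bars. Gabra5 is higher in the zQ175 groups, at a mean of 34.4 CPM in zQ175 DBD, against 17.7 CPM in WT DBD of 6M_12M, and single 6M_8M libraries stand far above their group in Gabra3.

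Gabra4, the alpha subunit that commonly pairs with delta, was below WT DBD in all 5 paradigms and passed the test in 6M_10M (-0.29, SE 0.062, adjusted p = 0.0004). Its fold changes were -0.13, -0.24, -0.22, -0.29 and -0.32. It also passed without the doubtful libraries in 2M_6M (-0.23) and 6M_8M (-0.24). Averaged over the paradigms, Gabra4 was lower by 0.24 on the log2 scale (adjusted p = 5.8e-07).

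Several members are neighbours in the genome, and neighbours did not all share a direction. On chromosome 5, Gabrg1, Gabra2, Gabra4 and Gabrb1 lie within 1398 kb (GRCm38, 70751047 to 72149037). Their average log2 fold changes between zQ175 DBD and WT DBD were 0.22, -0.28, -0.24 and 0.015 in that order along the chromosome, and the first 3 passed the test. The starts of Gabra4 and Gabrb1 overlap on opposite strands, and no source used here gives whether counting used the strand. Reads near the shared start cannot therefore be assigned with certainty. On chromosome 7, Gabra5 averaged 0.59 and its neighbour Gabrg3 -0.02, which did not pass. On chromosome X, Gabra3 lies between Gabre and Gabrq within 587 kb and was the only one of the trio above 1 CPM in the median library.

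Among the other receptor subunits, Gabrg1, a gamma subunit, was higher in zQ175 DBD of 2M_6M, at 25.8 to 43.4 CPM (median 31.2) in zQ175 DBD, against 21.6 to 24.3 CPM (median 23.3) in WT DBD, without overlap (0.43, SE 0.089, adjusted p = 0.00029). Its highest value was that of the doubtful R3. With R3 and the other doubtful libraries left out, the highest was 33.5 CPM in zQ175 DBD and the fold change was 0.28 (adjusted p = 0.0029). In the other paradigms it did not pass, with fold changes of 0.24, 0.16, 0.14 and 0.16. Gabrg3, the gamma-3 subunit, had fold changes of -0.15 to 0.043, Gabrb1 (beta-1) of -0.036 to 0.066 and Gabrb2 (beta-2) of 0.076 to 0.34, with no call. In 2M_6M the fold change of Gabrb2 was 0.27 without the doubtful libraries and 0.076 with them, and in 6M_10M it was 0.17 without and 0.34 with them. Its average over the 5 paradigms was 0.19 (adjusted p = 0.064), and without them 0.19 (adjusted p = 0.0067). Of the GABA-B subunits, Gabbr1 was lower in 2M_6M (-0.20, SE 0.072, adjusted p = 0.031), a call that was lost without the doubtful libraries (-0.11, adjusted p = 0.09). Averaged over the 5 paradigms, Gabbr1 passed as lower both with them (-0.078, adjusted p = 0.038) and without them (-0.083, adjusted p = 0.0055). Its partner Gabbr2 had fold changes of -0.12 to 0.17 with all libraries and 0.021 to 0.12 without the doubtful ones, with no call.

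The rare subunits Gabre, Gabrq and Gabrr2 gave no call in this comparison. Gabre had 0.17 CPM and Gabrq 0.556 CPM in the median library, but the library WT Estop R2 of 6M_8M held 7.96 CPM of Gabre and 13.9 CPM of Gabrq, and zQ175 DBD R8 of 6M_8M held 1.47 and 5.88 CPM. The same 2 libraries were highest of all in Gabra3, at 77.2 and 54.8 CPM. They were also highest in Zic1, a transcription factor known from septum and other regions beside the striatum, at 246 and 116 CPM, against 14.1 to 26.4 CPM in the 185 libraries of the other paradigms. Zic1 was listed with Cbln3 and Neurod1 as a marker of cerebellar granule cells. That list summed to 246 and 116 CPM in the 2 libraries, so nearly all of it was Zic1. WT Estop R2 held 11.5 CPM of Slc17a6, the glutamate transporter of subcortical excitatory neurons. Its list with Tcf7l2 and Lhx9 summed to 15.2 CPM there (1.93 to 4.16 CPM in the rest of the group). In zQ175 DBD R8 that list summed to 3.55 CPM, within the 1.75 to 4.89 CPM of the rest. Ependymal markers summed to 61.2 CPM in zQ175 DBD R8 (6.38 to 24.0 CPM in the rest) and 31.3 CPM in WT Estop R2 (7.90 to 32.6 CPM). In all, 4 libraries had more than 50 CPM of Zic1, all of them in 6M_8M. This was seen only after the values were known, and its part in the member levels was not tested.

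The genes of GABA synthesis, vesicle loading, uptake and breakdown did not pass the test between zQ175 DBD and WT DBD in any paradigm, in 30 tests of 6 genes (0 with DESeq2 and 1 test with an unadjusted p below 0.05 in edgeR). Gad1 had log2 fold changes of -0.043 to 0.045 with SEs of 0.045 to 0.089, and Gad2 of 0.054 to 0.22 with SEs of 0.069 to 0.11. In 6M_12M, Gad1 averaged 601 ± 95.2 CPM in zQ175 DBD (SD, n = 8) and 548 ± 98.1 CPM in WT DBD (SD, n = 7). Slc32a1 had fold changes of -0.16 to 0.077 and Abat of -0.18 to 0.11, with -0.042 to 0.077 and -0.047 to 0.04 when the doubtful libraries were left out. The transporters Slc6a11, found in astrocytes, and Slc6a13, found in the leptomeninges, had fold changes of -0.086 to 0.10 and -0.33 to -0.017. The lowest value of Slc6a11, that of 2M_6M, changed sign to 0.083 without those libraries. The SE of Slc6a13 in 2M_6M was 0.31, so a change of the size seen in Gabra3 was not detectable for it there. Averaged over the 5 paradigms, Gad2 passed as higher in zQ175 DBD (0.13, SE 0.045, adjusted p = 0.0094), and Gad1 did not (0.0021, SE 0.03, adjusted p = 0.97).

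Of the postsynaptic proteins, Gphn, which encodes the scaffold gephyrin, was lower in 2M_6M (-0.19, SE 0.067, adjusted p = 0.029), and without the doubtful libraries it was called in 6M_10M (-0.12, adjusted p = 0.035) and no longer in 2M_6M (-0.12, adjusted p = 0.083). The average of Gphn was -0.11 (SE 0.028, adjusted p = 0.0007). Nlgn2, the adhesion protein neuroligin-2, had fold changes of -0.069 to 0.25 with no call.

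The same genotype comparison with the other control virus contrasted the zQ175 Estop and WT Estop libraries. Some of these came from mice that also gave a DBD library, and the 6 groups of a paradigm shared 1 fit. This comparison is therefore not independent of the one with DBD. It gave 18 calls in 108 tests, 16.7% against 18.3% of all genes, with 9 higher (background 9.43%) and 9 lower (background 8.89%). With the doubtful libraries left out it gave 24 calls, with 23.1% of all genes called. The 6 gained were Gabra2 and Gabbr1 of 6M_10M and Gphn of 2M_6M, 6M_8M and 6M_10M, all lower, and Gabrg1 of 2M_6M, higher. Gabrd was lower in zQ175 Estop in all 5 paradigms, with log2 fold changes of -0.55, -0.61, -0.52, -0.56 and -0.68, and the zQ175 Estop and WT Estop libraries did not overlap within any paradigm. Of all genes, 3.76% were lower in all 5, and 7.12% of all tests had groups without overlap. In 6M_12M, for example, Gabrd ranged over 98.3 to 123 CPM (median 113, n = 8) in zQ175 Estop, against 154 to 202 CPM (median 160.1, n = 7) in WT Estop. Gabra5 was higher in 4 paradigms, with fold changes of 0.49, 0.61, 0.25, 0.65 and 0.63, and Gabra3 in the same 4, with 0.20, 0.33, -0.09, 0.22 and 0.26. The paradigm without a call was 6M_8M for both. Without the 4 libraries high in Zic1, Gabra3 of 6M_8M changed sign to 0.15 and Gabra5 was 0.31, and neither passed (adjusted p = 0.59 and 0.18).

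Gabra2 was lower in zQ175 Estop of 2M_6M and 6M_8M, with fold changes over the paradigms of -0.32, -0.093, -0.31, -0.26 and -0.30. With the mouse as a random block, the 2M_6M call was lost (adjusted p = 0.054), as was that of Gabra3 in 6M_12M (adjusted p = 0.072). Gabra4 was lower in 2M_6M and 6M_10M (-0.27 and -0.22), and Gabrg1 was higher in 6M_10M (0.31, SE 0.078, adjusted p = 0.0025). The 6 genes of synthesis, loading, uptake and breakdown again had no call (0 with DESeq2 and 0 tests with an unadjusted p below 0.05 in edgeR).

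The effect of the repressor in mutant mice was compared between zQ175 nZFP and zQ175 DBD. In the 2 paradigms injected at 2 months, Gabrd was higher and Gabra3 lower under nZFP, each opposite in sign to its difference between zQ175 DBD and WT DBD, and in the 3 paradigms injected at 6 months no member passed the test. The 2 comparisons share the zQ175 DBD libraries. In all, 7 of 108 tests passed, 6.48% against 6.49% of all genes, 3 higher (background 2.84%) and 4 lower (background 3.65%). The background differed between the paradigms, at 23.2, 7.06, 0.113, 0.972 and 1.25% of all genes. In the 3 paradigms without a call, 1, 3 and 2 members had an unadjusted p below 0.05, and DESeq2 called none. Without the doubtful libraries 6 tests passed, with 4.7% of all genes called. With each mouse as a fixed block, so that viruses were compared within mice, 3 tests passed.

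Gabrd in 2M_6M ranged over 127 to 151 CPM (median 141, n = 8) in zQ175 nZFP, against 101 to 139.6 CPM (median 105, n = 7) in zQ175 DBD. In 2M_8M it ranged over 128 to 191 CPM (median 154, n = 8) in zQ175 nZFP, against 98.6 to 123 CPM (median 108, n = 8) in zQ175 DBD. The groups of 2M_8M did not overlap (1.37% of all tests had groups without overlap), and those of 2M_6M overlapped only through the doubtful zQ175 DBD R3. The 6M_8M ranges were 94.9 to 131 CPM (median 102, n = 8) in zQ175 nZFP, against 77.5 to 109 CPM (median 92.3, n = 8) in zQ175 DBD. For 6M_10M they were 106 to 186 CPM (median 115, n = 6) in zQ175 nZFP, against 95.9 to 113 CPM (median 103, n = 8) in zQ175 DBD, and for 6M_12M 110.2 to 139 CPM (median 124, n = 8) in zQ175 nZFP, against 99.4 to 121 CPM (median 107, n = 8) in zQ175 DBD. Each of these 3 pairs overlapped, and the highest nZFP value of 6M_10M, 186 CPM, was that of the doubtful R2.

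The log2 fold changes of Gabrd were 0.35, 0.49, 0.24, 0.33 and 0.15, with SEs of 0.072, 0.075, 0.093, 0.11 and 0.081 and adjusted p-values of 0.00055, 8.3e-06, 0.73, 0.2 and 0.47. Without the doubtful libraries they were 0.45, 0.49, 0.18, 0.14 and 0.15, of which the 6M_10M value moved most. Both 2-month calls were kept with the mouse as a fixed block (adjusted p = 0.0065 and 9.5e-05). The test of a difference between the 5 paradigms gave Gabrd an adjusted p of 0.28 with all libraries and 0.018 without the doubtful ones, so the call that the repressor's effect on Gabrd differed between paradigms rested on leaving those libraries out. Of 9 medium spiny neuron markers, 8 and 7 were higher under nZFP in 2M_6M and 2M_8M. In the other 3 paradigms, where Gabrd did not pass, 0, 6 and 4 were. Of all genes, 23.2, 7.06, 0.113, 0.972 and 1.25% were called in either direction, and 2.84% were called higher over the 5 paradigms pooled. The summed level of these markers had group medians of 6433 to 9149.6 CPM in zQ175 nZFP, against 5733 to 6013 CPM in zQ175 DBD, and their part was not tested.

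Gabra3 in 2M_6M ranged over 20.5 to 24.3 CPM (median 21.7) in zQ175 nZFP, against 18.3 to 33.3 CPM (median 25.8) in zQ175 DBD. In 2M_8M the ranges were 21.0 to 27.9 CPM (median 23.6) in zQ175 nZFP, against 25.5 to 32.5 CPM (median 28.9) in zQ175 DBD. Most nZFP libraries were below most DBD libraries, with some overlap in both. The overlap of 2M_6M was only through the doubtful zQ175 DBD R3, without which the lowest DBD value was 25.0 CPM. In 6M_10M Gabra3 ranged over 19.3 to 28.0 CPM (median 27.4) in zQ175 nZFP, against 28.4 to 32.0 CPM (median 29.9) in zQ175 DBD, without overlap, although the difference did not pass. The lowest nZFP value there was that of the doubtful R2. Its fold changes were -0.22, -0.25, -0.038, -0.17 and -0.29, with adjusted p-values of 0.016, 0.014, 1, 0.29 and 0.095. With the mouse as a fixed block the 2M_6M call was lost (adjusted p = 0.058). With it as a random block, 6M_12M was gained (adjusted p = 0.022).

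Gabra5 was lower under nZFP in 2M_6M, at 19.8 to 29.9 CPM (median 26.1) in zQ175 nZFP, against 29.5 to 36.7 CPM (median 33.5) in zQ175 DBD (-0.37, SE 0.10, adjusted p = 0.0048). With the mouse as a fixed block its adjusted p was 0.062. In the other paradigms the fold changes of Gabra5 were -0.20, 0.10, -0.071 and -0.24 and did not pass. Gabra2 did not pass in any paradigm, with fold changes of 0.077, -0.058, 0.15, 0.024 and 0.081. In 2M_6M alone, Gabrg1 was lower under nZFP (-0.30, SE 0.089, adjusted p = 0.014) and Gabbr1 higher (0.24, SE 0.072, adjusted p = 0.015). The call of Gabrg1 was lost without zQ175 DBD R3 and the other doubtful libraries (adjusted p = 0.11), that of Gabbr1 was kept at a smaller value (0.14, adjusted p = 0.034), and both calls were lost with the mouse as a fixed block (adjusted p = 0.15 and 0.23). Synthesis, loading, uptake, breakdown and scaffold genes gave no call with edgeR, with fold changes of -0.15 to 0.0083 for Gad1 and -0.10 to 0.23 for Slc32a1 (-0.027 to 0.11 without the doubtful libraries). Of the 30 tests of synthesis, loading, uptake and breakdown genes, 5 had an unadjusted p below 0.05. DESeq2 called 1 of them, Slc32a1 in 2M_6M, as did the fit with the mouse as a random block.

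In WT mice, where there is no expanded repeat, nZFP and DBD were compared for effects of the repressor itself. Of 108 tests 2 passed, both lower and both in 2M_8M (1.85% against 0.911% of all genes, and 2.04% of all genes lower in 2M_8M). Gabrb2 averaged 61.7 ± 16.6 CPM in WT nZFP and 97.6 ± 12.5 CPM in WT DBD (SD, n = 8 each), a log2 fold change of -0.59 (SE 0.15, adjusted p = 0.022). Slc6a11 averaged 59.2 ± 8.67 CPM in WT nZFP and 79.7 ± 10.2 CPM in WT DBD (SD, n = 8 each), with -0.36 (SE 0.10, adjusted p = 0.035). Both pairs of groups overlapped, and both calls were lost with the mouse as a fixed block (0 member calls) and when the length index was a covariate. A further test, Gad1 of 6M_10M, passed as lower when the doubtful libraries were left out (-0.17, adjusted p = 0.021), against -0.15 (adjusted p = 0.16) with them. Gabrd had fold changes of -0.016, 0.094, 0.24, -0.08 and -0.046, and those of 6M_8M and 6M_10M became 0.066 and 0.018 without these libraries. Gabra5 had fold changes of -0.026, 0.007, -0.086, -0.20 and -0.09 and Gabra3 of -0.023, -0.16, 0.025, -0.11 and -0.21, and none of the 3 genes had a call. Averaged over the paradigms, Gad1 was lower under nZFP in WT (-0.14, SE 0.029, adjusted p = 0.00058), the single member of 22 to pass, against 3.33% of all genes.

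The interaction of repressor and genotype, which asks whether nZFP over DBD differed between zQ175 and WT, passed for 3 of 108 tests (2.78% against 1.06% of all genes). Gabrd passed in 2M_6M (0.37, SE 0.10, adjusted p = 0.03) and 2M_8M (0.40, SE 0.11, adjusted p = 0.032), the nZFP effect being more positive in zQ175 than in WT. With the mouse as a fixed block the 2M_6M call was lost (adjusted p = 0.1) and that of 2M_8M was kept (adjusted p = 0.046). In the other paradigms the interaction of Gabrd was -0.0015, 0.41 and 0.20 with all libraries and 0.12, 0.12 and 0.20 without the doubtful ones, and did not pass in either case. Gabrg1 passed in 2M_6M (-0.42, SE 0.12, adjusted p = 0.049), but not without the doubtful libraries (-0.27, adjusted p = 0.13). Gabra3 and Gabra5 did not pass the interaction in any paradigm, so their effect of nZFP was not shown to differ between the genotypes.

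The control viruses DBD and Estop were compared within each genotype. In WT, 0 of 108 tests passed with edgeR, against 0.266% of all genes. There were 7 tests with an unadjusted p below 0.05. No member passed with DESeq2 and 1, Gabrr2 of 2M_8M, with the mouse as a random block. In zQ175, 0 of 108 passed with edgeR, against 1.05% of all genes, and 7 had an unadjusted p below 0.05. DESeq2 called 1, Nlgn2 of 2M_6M, and the fit with the random block 0.

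What remained of the genotype difference under the repressor was compared between zQ175 nZFP and WT nZFP. Of 108 tests 12 passed, 7 higher and 5 lower in zQ175 (11.1% against 12.3% of all genes), none of them in 2M_6M, where 1.54% of all genes were called, 2 members had an unadjusted p below 0.05 and DESeq2 also called none. By direction the backgrounds were 6.21% higher and 6.11% lower. Leaving out the doubtful libraries, 17 tests passed, with 13.9% of all genes called. The 5 gained were Gabrd of 6M_10M, Gabra2 of 6M_8M, Gad1 and Gad2 of 6M_10M (0.15 and 0.26) and Gabra4 of 2M_6M (-0.23, adjusted p = 0.024). Gabrd remained lower in 2M_8M, 6M_8M and 6M_12M, with fold changes over the paradigms of -0.16, -0.27, -0.51, -0.30 and -0.52. In 6M_12M it ranged over 110.2 to 139 CPM (median 124, n = 8) in zQ175 nZFP, against 140.5 to 178 CPM (median 170.0, n = 8) in WT nZFP, without overlap (2.72% of all tests had groups without overlap). In 6M_10M the adjusted p was 0.054, and without the doubtful libraries, 1 of which is the highest zQ175 nZFP library, the fold change was -0.49 with an adjusted p of 2.4e-07. It passed there with the mouse as a random block as well (adjusted p = 0.018).

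Gabra5 was higher in zQ175 nZFP in the 3 paradigms injected at 6 months, with fold changes over all paradigms of 0.18, 0.36, 0.59, 0.78 and 0.70. In 6M_10M it ranged over 27.0 to 36.8 CPM (median 29.9, n = 6) in zQ175 nZFP, against 13.9 to 20.9 CPM (median 17.7, n = 8) in WT nZFP, without overlap. In 2M_8M its adjusted p was 0.0503, and 0.046 with the mouse as a random block. Gabra3 was higher in 2M_8M and 6M_10M (0.24 and 0.25). Single calls were Gabra4, lower in 6M_12M (-0.52, SE 0.13, adjusted p = 0.0038), Gphn, lower in 6M_12M (-0.21), Gabrg1, higher in 6M_10M (0.44), and Gabrb2, higher in 2M_8M (0.61), where the WT nZFP libraries are the ones low in Gabrb2.

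Averaged over the 5 paradigms in a fit of all 30 groups, 9 of 22 members differed between zQ175 DBD and WT DBD (4 higher, 5 lower), against 46.9% of all genes. Gabrd had the largest fall, -0.63 (SE 0.039, adjusted p = 2.7e-36), and Gabra5 the largest rise, 0.59 (SE 0.053, adjusted p = 7.8e-22), of the 22. Gabra3 averaged 0.30, Gabra2 -0.28 and Gabrg1 0.22. Under the repressor, zQ175 nZFP and WT nZFP differed in 9 members, against 36.3% of all genes. Gabrd then averaged -0.35 (SE 0.039, adjusted p = 8.3e-15), Gabra5 0.52 (SE 0.053, adjusted p = 3.5e-17) and Gabra3 0.20 (SE 0.051, adjusted p = 0.00062). Gabrb2, Gad2 and Gad1 passed as higher too (0.31, 0.16 and 0.10, adjusted p = 0.0033, 0.0015 and 0.0036). Gabra4, Gabra2 and Gphn passed as lower (-0.24, -0.19 and -0.095, adjusted p = 5.8e-07, 0.0016 and 0.0038). The repressor itself changed 3 members in zQ175, against 17.1% of all genes: Gabrd by 0.31 (SE 0.039, adjusted p = 8e-12), Gabra3 by -0.20 (SE 0.051, adjusted p = 0.002) and Gabra5 by -0.16 (SE 0.053, adjusted p = 0.025). No member passed the test of a difference between the paradigms with all libraries, which was passed by 0.363% of all genes for the genotype effect under DBD and 3.36% for the repressor in zQ175. At an unadjusted p below 0.05 there were 0 and 2 members.

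**Figure D5:**
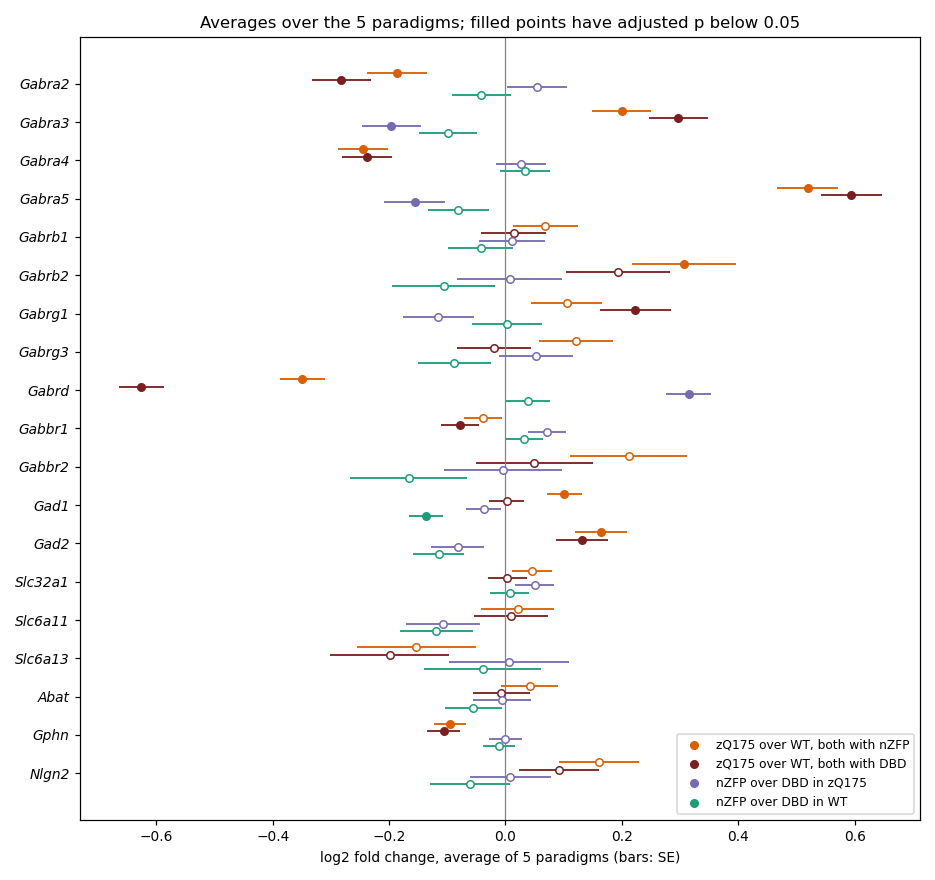
Average log2 fold changes over the 5 paradigms (points, bars show SE) of the 19 members above 1 CPM in the median library, for zQ175 over WT with nZFP (orange), zQ175 over WT with DBD (dark red), and nZFP over DBD in zQ175 (purple) and WT (green); filled points have adjusted p below 0.05. Gabrd lies at -0.63 with DBD and -0.35 with nZFP, while Gabra5 lies at 0.59 and 0.52.

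A list of 29 further genes of the pathway (receptor trafficking and auxiliary proteins, other inhibitory postsynaptic proteins, chloride transporters, and enzymes of the glutamate-glutamine-GABA cycle) was examined beside the members, of which 27 were matched and 26 tested. Between zQ175 DBD and WT DBD, 27 of 130 tests passed, 11 higher and 16 lower (the background being 19.8% of all genes), with a median log2 fold change of 0.005. Among those called in most paradigms were Insyn1 and Glul, each lower in all 5, Clptm1, lower in 4, and Slc12a2, higher in 4. Insyn1, a gephyrin-binding protein of the inhibitory postsynapse, had fold changes of -0.50 to -0.32. Glul, the glutamine synthetase of astrocytes, had fold changes of -0.41 to -0.24. Of 8 astrocyte markers, 11 of 40 tests were lower and 1 higher (9.48% and 10.3% of all genes), and their sum had group medians of 2606 to 3066 CPM in zQ175 DBD, against 3147 to 3690.2 CPM in WT DBD, whose part in Glul was not tested. Clptm1, which retains GABA-A receptors inside the cell, had fold changes of -0.31 to -0.18. Slc12a2, a chloride importer, had 0.037 to 0.32. With Estop in both genotypes, Insyn1 and Glul were again lower in 5 paradigms, and Clptm1 was lower and Slc12a2 higher in 3. Under nZFP in zQ175, 7 of 130 tests passed, 5 higher and 2 lower (the background being 6.49% of all genes). All of them were among the 26 tests of 2M_6M, where 23.2% of all genes were called. Insyn1 and Clptm1 were among the higher ones, with fold changes over the paradigms of 0.14 to 0.28 and -0.01 to 0.33.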

How the data were processed

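RNA of 233 striatal libraries was analysed as deposited. The expected counts, estimated counts per gene that need not be whole, were made by the authors with RSEM on GRCm38, per the submitters' processing notes, which give no versions. Of the deposited values 90.4% were whole to within 1e-09, and all were rounded before testing. A second deposited table is labelled FPKM, but each column sums to 1000000, so its values were used as TPM, which the authors computed per transcript length and library. The annotation release and the use of strand in counting: not given in the sources used here. Symbols and coordinates came from a GRCm38 annotation matched by identifier, for 40254 of 41129 gene entries. The 6 vector entries were left out of totals and tests.

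Tests used edgeR 4.0.16 in R 4.3.3 (filterByExpr, TMM, robust quasi-likelihood test), sex being a covariate, and the 6 groups of a paradigm in 1 fit, which was checked on simulated data. Averages over and differences between paradigms (4 degrees of freedom) came from a fit of all 30 groups. Adjusted p-values are Benjamini-Hochberg values over all genes, and a call is an adjusted p below 0.05. Members that passed in the same direction in 3 or more paradigms in the genotype comparison with DBD or the repressor comparison in zQ175 are described in full, members called elsewhere by their values, and the rest by range and count. The members and lists were chosen with earlier results of these data known. CPM divides by the library's gene total. Alternatives were DESeq2, limma 3.58.1, other scaling, filtering and covariates, mouse and replicate blocks, and leaving libraries out. The mouse pairs libraries, since 2 libraries of a mouse are the same animal by the labels. Their deviations from group means correlated with medians of 0.23, 0.49, 0.24, 0.19 and 0.59 over the paradigms. Replicate numbers were not used to pair libraries. Promoter windows are from RefSeq, and no window was at hand for Gabrd and Abat. A gene of the pathway list is counted but not reported by name here.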

Additional observations from a re-analysis of the deposited data

Results flagged for a closer look

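A library was singled out where its level lay far from the others of its group, by Dixon's criterion at the 95% level, in Gabrd, Gabra5, Gabra3, Gabra2, Gabre and Gabrq. Of 180 sets of levels looked at, each of 1 gene in 1 group, 26 held such a library. The criterion's rate of about 1 in 20 assumes independent normal values. Rare genes need not meet this and some libraries recur across genes, so no excess over chance can be read from the count. Gabrd stood out at 189 CPM in WT nZFP R8 of 6M_8M (nearest 152 CPM), 174 CPM in WT Estop R1 of 2M_6M (nearest 152 CPM), 218 CPM in WT DBD R2 of 6M_10M (nearest 161 CPM) and 186 CPM in zQ175 nZFP R2 of 6M_10M (nearest 118 CPM). Of these, the ones other than WT Estop R1 are doubtful libraries. Gabra5 stood out at 45.7 CPM in zQ175 DBD R3 of 2M_8M (nearest 35.6 CPM). Gabra3 stood out at 54.8 CPM in zQ175 DBD R8 of 6M_8M (nearest 37.6 CPM), 77.2 CPM in WT Estop R2 of 6M_8M (nearest 36.4 CPM), 19.3 CPM in zQ175 nZFP R2 of 6M_10M (nearest 27.1 CPM) and 36.6 CPM in zQ175 Estop R2 of 6M_12M (nearest 30.0 CPM). Gabra2 stood out at 9.49 CPM in zQ175 DBD R3 of 2M_6M (nearest 22.1 CPM), 16.0 CPM in zQ175 Estop R7 of 2M_6M (nearest 22.4 CPM), 10.1 CPM in zQ175 nZFP R2 of 6M_10M (nearest 21.7 CPM) and 29.1 CPM in zQ175 Estop R1 of 2M_8M (nearest 21.1 CPM). The lowest values of Gabra2 were those of the doubtful zQ175 DBD R3 of 2M_6M and zQ175 nZFP R2 of 6M_10M, and the second of these was also low in Gabra3 and high in Gabrd.

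Gabre stood out at 1.47 CPM in zQ175 DBD R8 of 6M_8M (nearest 0.216 CPM), 1.27 CPM in zQ175 Estop R6 of 6M_8M (nearest 0.498 CPM), 7.96 CPM in WT Estop R2 of 6M_8M (nearest 0.777 CPM), 0.98 CPM in zQ175 nZFP R1 of 6M_8M (nearest 0.431 CPM), 0.45 CPM in WT DBD R2 of 2M_6M (nearest 0.195 CPM), 0.0249 CPM in zQ175 Estop R1 of 6M_10M (nearest 0.179 CPM) and 0.383 CPM in zQ175 DBD R5 of 6M_12M (nearest 0.163 CPM). Gabrq stood out at 5.88 CPM in zQ175 DBD R8 of 6M_8M (nearest 1.45 CPM), 3.81 CPM in zQ175 Estop R6 of 6M_8M (nearest 1.55 CPM), 13.9 CPM in WT Estop R2 of 6M_8M (nearest 2.67 CPM), 0.867 CPM in WT nZFP R5 of 6M_10M (nearest 0.589 CPM), 1.05 CPM in WT nZFP R6 of 2M_8M (nearest 0.379 CPM) and 0.726 CPM in zQ175 nZFP R3 of 2M_8M (nearest 0.429 CPM). Of these 13 levels, 7 came from 6M_8M, the paradigm that held every library above 50 CPM of Zic1.

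The repressor's effect differed between zQ175 and WT by the interaction test for Gabrd in 2M_6M (0.37 on the log2 scale) and in 2M_8M (0.40), and for Gabrg1 in 2M_6M (-0.42), which was lost without the doubtful libraries. Of 13 alternatives, the Gabrd calls were kept in 11 for 2M_6M and 10 for 2M_8M, and that of Gabrg1 in 2. With the mouse as a fixed block the Gabrd call of 2M_6M was lost.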

How the results depend on the processing

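Counts of member calls stayed within 1.5 times the reported count in 114 of 135 cases over all comparisons and alternatives. The length index as a covariate gave 36 calls for the genotype with DBD (20 reported), 34 with Estop (18), 26 under nZFP (12) and 12 for the repressor in zQ175 (7), and the cause was not tested. The replicate block by number gave 28 for the genotype under nZFP and 13 for the repressor in zQ175. Replicate numbers were not taken as pairs, since the labels give the mouse. The correlations of same-numbered libraries had lowest values of -0.52, -0.81, -0.50, -0.48 and -0.40. Those of same-mouse libraries had lowest values of -0.048, -0.071, -0.17, -0.27 and -0.56, so low single values do not tell the 2 pairings apart. The medians of same-numbered libraries were 0.052, 0.11, 0.046, 0.085 and 0.55. That of 6M_12M was close to the 0.59 of same-mouse libraries. The replicate block by mouse gave 3 for the repressor in zQ175, 0 in WT (2 reported) and 1 for the interaction (3 reported). Fitting only the groups compared, with fewer samples, gave 2 for the repressor in zQ175, 0 in WT and 0 for the interaction. Without a filter there was 1 call for the repressor in WT and 1 for the interaction, and with Estop in place of DBD 1 for the interaction. The mouse as a random block gave 4 for the repressor in WT and 1 for the control viruses in WT, and DESeq2 gave 1 for the control viruses in zQ175. Without the libraries that contradict their label or stand apart, but with WT nZFP R8 of 6M_8M kept, the average of the repressor in WT had 2 calls, Gad1 and Gad2 (1 reported, Gad1). The differences between paradigms in the repressor effect in zQ175 then had 1 (0 reported), Gabrd. With WT nZFP R8 of 6M_8M left out too, Gad2 no longer passed (adjusted p = 0.09) and Gabrd still did. The set that leaves out WT nZFP R8 and the one high in Zic1 were chosen after seeing the data. Of 842 values of single called members under the alternatives, 769 kept their direction and call, 73 lost the call and 0 changed sign. Members below 1 CPM are limited by depth.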

Other observations

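Slc6a11, the astrocytic transporter, spanned 17.2 to 191 CPM over the 233 libraries, Gabbr2 13.9 to 119 CPM and Gabrb2 11.1 to 154 CPM, whereas Gabrd spanned 77.5 to 218 CPM. In the 4 libraries that stood apart in the length index, zQ175 DBD R3 of 2M_6M, zQ175 nZFP R2 of 6M_10M, WT DBD R2 of 6M_10M and WT nZFP R8 of 6M_8M, Gabbr2 had 14.4, 13.9, 17.8 and 23.9 CPM and Gabrb2 11.9, 11.1, 12.2 and 25.2 CPM, beside medians over all libraries of 73.1 and 106 CPM. Gabra2 was lowest as a paradigm in 6M_12M, with group means of 14.7 CPM in zQ175 DBD and 19.3 CPM in WT DBD; a comparison between paradigms was not tested.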
